A study of Mus musculus with 21 samples.

Results

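The comparison described here is that of a high (80 µg) with a low (0.8 µg) dose of peptide at 4 h, across all genes. It uses 6 of the 21 libraries of the series, chosen by their labels alone, with 3 mice in each dose group. All mice were of the strain the labels call Tg4 Tiger Nr4a3-Tocky, in which CD4+ T cells bear a transgenic receptor for a peptide of myelin basic protein, an Il10-GFP reporter marks transcription of Il10, and a fluorescent Timer protein is driven by Nr4a3 regulatory sequences. Timer protein is blue when newly made and matures to red, so that Blue+Red- cells are those in which receptor signalling has only recently begun. The [4Y] MBP peptide, a form of the peptide that binds its MHC class II molecule stably, was injected subcutaneously without adjuvant, and Blue+Red- CD4+ T cells were sorted from the spleen at 4 h at both doses. The 3 control libraries, from untreated mice of the same strain, serve here only as a reference level, and their sorting gate is not given in the sources used here. Ages are not given either. All cells share 1 engineered receptor specificity, so the groups model a single clonotype rather than a natural repertoire.

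When a T cell receptor binds peptide on an MHC molecule, the kinase Lck phosphorylates the CD3 chains, and the signal branches into calcium and NFAT, Ras and MAP kinase, and NF-κB pathways. These induce immediate early transcription factors within minutes to hours, followed by cytokines, cytokine receptors and costimulatory or coinhibitory receptors that set how the cell responds to its neighbours. The amount of antigen changes how many receptors are engaged and for how long, and individual genes differ in how much signal they need.

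RNA was measured by sequencing of the 3′ ends of mRNA, and levels are given as normalised counts, the read counts divided by the size factor of their library. They are not scaled to gene length, so levels are compared between groups and not between genes. The 6 libraries held between 2715246 and 4333593 counts. The floor, set at 3 counts, lay between 2.57 and 3.95 normalised counts. The ribosomal RNA-associated gene Gm42418 took 18.1 to 22.8% of the counts, with overlapping ranges in the dose groups. Mitochondrial genes took 5.91 to 6.48% with 0.8 µg and 5.17 to 5.82% with 80 µg, without overlap, and the part of this difference in the results was not tested. The root mean square difference in log2 level between libraries was 0.377 to 0.410 within a dose group and 0.507 to 0.597 between the groups. Counts of sex-linked genes placed 2 female mice and 1 male mouse in each dose group.

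Log2 fold changes compare 80 µg with 0.8 µg and were shrunk towards 0 by DESeq2, and a call needed both a Benjamini-Hochberg adjusted p under 0.05 and a log2 fold change of more than 1 in size. Of 10848 genes tested, 338 were called higher (3.12%) and 297 lower (2.74%) with 80 µg. The median log2 change of the genes called higher was 1.72. Changes of more than 2 on this scale were met by 129 of the genes called higher and 54 of those called lower. The values of the 3 libraries of a dose did not overlap with those of the other dose for 605 of the 635 called genes, whereas this held for 28.7% of all tested genes in either direction. The median unshrunken log2 fold change of all tested genes was -0.02. Calls rest on differences between mice, since each library came from cells of a separate mouse.

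The sorted cells carried the marks of antigen-engaged CD4+ T cells at both doses. Nr4a3, the gene whose regulatory sequences drive the Timer, had 3510, 3649 and 3450 normalised counts with 0.8 µg and 3260, 3408 and 3227 with 80 µg, against 37.1, 28.4 and 12.8 in the controls. The dose groups did not overlap but differed little, and the difference was not called (log2 change -0.10, SE 0.36, adjusted p = 0.938). Nr4a1, another early target of receptor signalling, averaged 2176 and 2008, and Cd69, an activation marker, 2234 and 2394, at the low and the high dose. The sum over 9 T cell markers lay between 7468 and 8445 at the low and 6732 and 7314 at the high dose, with Cd4, Cd3g and Cd3e called lower, while Cd8a, which encodes a chain of the coreceptor of the other main T cell class, averaged 4.54 and 3.13. The gene of the other chain, Cd8b1, averaged 76.0 and 76.5, with 125 in the control.

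Genes are described below in 26 hand-written lists that follow the path of the signal. Beside the genes picked by the ranking stated with the processing, further members are named, and these were chosen after their values were seen. The plot of the lists shows every tested member.

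**Figure D1:**
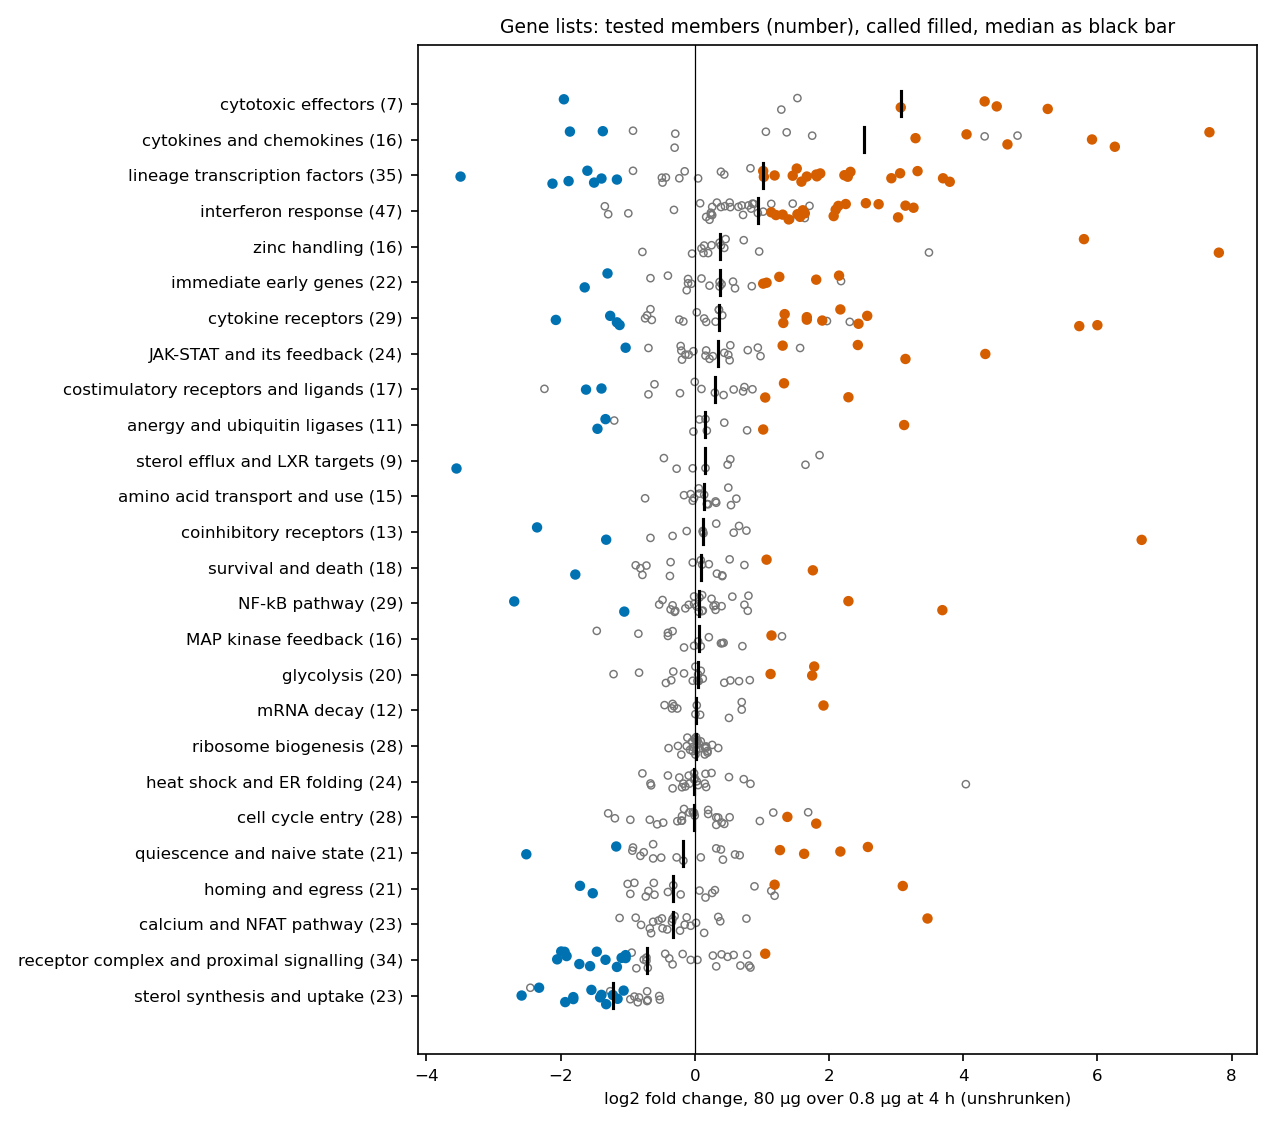
Each point is a tested member of a gene list, placed by its unshrunken log2 fold change between 80 µg and 0.8 µg at 4 h. Filled points are called genes (orange higher, blue lower), open points were not called, black bars are list medians and the number of tested members follows each name. The medians of the cytotoxic effector and cytokine lists lie furthest to the right, at 3.07 and 2.52, and that of the sterol list lies furthest to the left, at -1.22.

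Among cytokines and chemokines, 6 of 16 tested members were called higher and 2 lower with 80 µg by DESeq2. By edgeR, 8 were called higher and 1 lower. The median unshrunken log2 fold change was 2.52. Il21, which encodes a cytokine of T follicular helper cells that acts on B cells, had 1.01, 1.32 and 0 normalised counts with 0.8 µg and 228, 92 and 139 with 80 µg. Every library of the high dose stood far above those of the low dose and of the control, whose highest value was 2.03. With so few counts at the low dose, the ratio of the groups was 198 (95% exact counting interval 54.6 to 1643, adjusted p = 6.62e-11). In bulk libraries such as these, more expressing cells and more RNA per cell cannot be told apart.

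The rise around Il21 covered a block of neighbouring genes. On chromosome 3, the 5 neighbours Il2, Il21, Gm12534, Gm43822 and Cetn4, between positions 37120523 and 37312708 (GRCm38), were all called higher. Il2, the growth factor of T cells, rose from 155 ± 44.2 (SD, n = 3) to 1514 ± 439 normalised counts (log2 change 3.21, SE 0.33, adjusted p = 1.07e-19). Gm12534, an antisense gene with an exon over Il21, was at 0 in all 3 libraries of the low dose and at 167, 129 and 145 with 80 µg. Against a floor of 3 counts in each library it was at least 43.1-fold higher. Gm43822, an unspliced transcript annotated just upstream of Il21, was also at 0 in the low-dose libraries and had 68.3, 57.1 and 35.2 counts with 80 µg, at least 15.7-fold higher. Its call was lost with the replicate block and when any 1 of the 3 libraries of 80 µg was left out. As the strand setting of the counting is not given in the sources used here, reads of Il21 and Gm12534 may not be separable.

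Ifng, the gene of the cytokine interferon-gamma, had 7.07, 5.27 and 0 normalised counts with 0.8 µg and 772, 122 and 52.3 with 80 µg. The high-dose libraries were spread widely, with 1 library far above the others, yet all lay above the low-dose libraries (log2 change 5.23, SE 0.76, adjusted p = 3.61e-09). In a fit to these 6 libraries alone, its log2 fold change was 0.85 and the call was lost. Of the further members, the leukaemia inhibitory factor gene Lif rose from 15.4 ± 15.3 to 252 ± 47.1, and the chemokine gene Ccl4 from 17.5 ± 14.1 to 431 ± 152. Ccl3, a close relative of Ccl4, averaged 1.76 ± 3.04 with 0.8 µg and 48.2 ± 20.4 with 80 µg, without overlap. It was not called by DESeq2 (adjusted p = 0.222). Tnf and Lta, cytokine genes encoded side by side, had log2 fold changes of -0.30 and -0.92 and were not called. Tnf did not pass the test (adjusted p = 0.473). Lta fell from 504 ± 26.2 to 266 ± 45.6 without overlap (adjusted p = 2.11e-05) and missed the call by its fold change. Ltb, which encodes the membrane-bound lymphotoxin beta, fell. It had 525, 337 and 505 normalised counts with 0.8 µg and 135, 132 and 111 with 80 µg, without overlap (decreased by 1.83 in log2 units, SE 0.24, adjusted p = 2.14e-12). Xcl1, a chemokine for cross-presenting dendritic cells, was at 94.9, 98.8 and 69.1 with 0.8 µg and at 47.5, 33.9 and 20.6 with 80 µg (adjusted p = 0.0492), but this call was lost under 10 of 15 alternatives. Cxcl9, a chemokine that interferon-gamma induces and that is not in this list, was at 1.01, 1.32 and 0 with 0.8 µg and at 90.3, 48.4 and 23.1 with 80 µg, a ratio of 67.7 (95% exact counting interval 18.4 to 564).

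**Figure D2:**
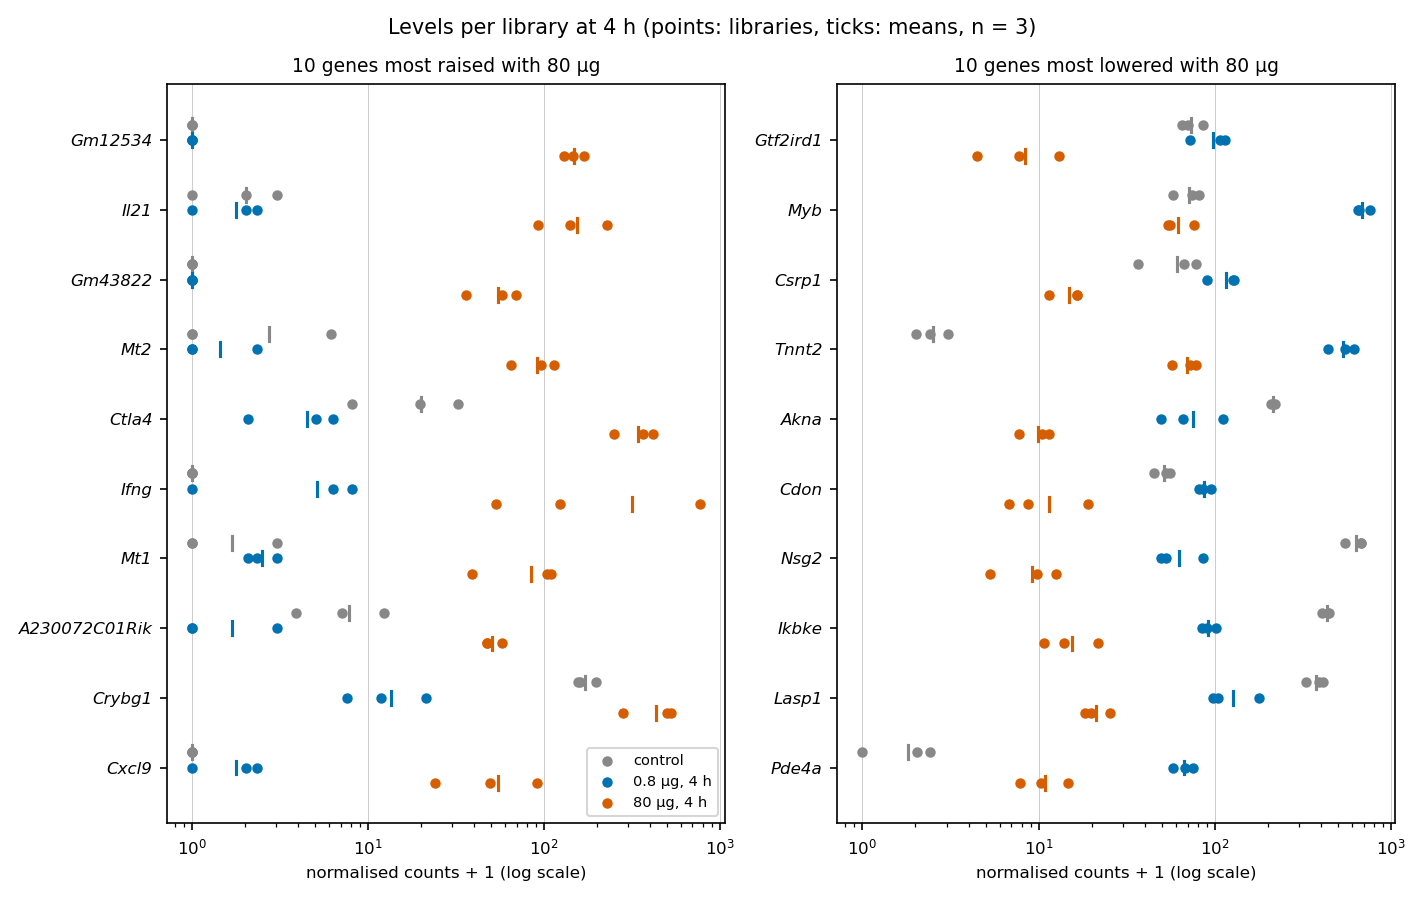
Normalised counts plus 1, on a log axis, of the 10 genes most raised (left) and the 10 most lowered (right) with 80 µg at 4 h, chosen from the called genes that averaged 20 or more and whose dose groups do not overlap. Points are single libraries and ticks are means of 3, in orange for 80 µg, blue for 0.8 µg and grey for the control. The separation of the dose groups follows from that choice, and the control lies on either side or between the dose groups depending on the gene.

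Of 7 tested genes of cytotoxic effectors, 4 were called higher and 1 lower. Gzmb, the gene of the protease granzyme B, had 0, 7.9 and 0 normalised counts with 0.8 µg and 88, 70.7 and 108 with 80 µg (log2 change 4.61, SE 0.57, adjusted p = 1.87e-11). This call, too, was lost in the fit to the 6 libraries alone, where the log2 fold change was 0.83. Serpinb6b, a serine protease inhibitor gene, rose from 17.2, 30.3 and 15.1 to 506, 350 and 529, while the controls, at 17.2 to 27.1, matched the low dose. Serpinb9, which encodes an inhibitor of granzyme B, moved from 43.4 ± 21.3 to 857 ± 193 (log2 change 4.19, SE 0.34). Crtam, a surface receptor found on activated cytotoxic T cells, went the other way, with 360, 248 and 326 at the low and 63.7, 93.9 and 84 at the high dose, and no overlap (decreased by 1.91 in log2 units, SE 0.31, adjusted p = 2.73e-08).

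Coinhibitory receptors, which restrain the T cell, moved in both directions. Of 13 tested, 1 was called higher and 2 lower. Ctla4, which competes with CD28 for its ligands, had 4.04, 5.27 and 1.08 normalised counts with 0.8 µg and 417, 250 and 364 with 80 µg. The control libraries, at 7.1 to 31.4, lay between the doses and nearer the low dose (log2 change 5.93, SE 0.55, adjusted p = 4.69e-21). Cd160, a receptor for the ligand HVEM, fell from 158, 120 and 158 to 25.5, 32 and 28.3 (decreased by 2.29 in log2 units, SE 0.33, adjusted p = 3.07e-10). Cd274, which encodes the ligand PD-L1, fell from 611, 580 and 620 to 259, 259 and 208 (decreased by 1.31, SE 0.16, adjusted p = 2.44e-14). Both were above the control at both doses. Pdcd1, the gene of PD1, had a log2 fold change of 0.65 and was not called.

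Of 17 tested costimulatory receptors and ligands, 3 were called higher and 2 lower. Cd40lg, whose product licenses B cells and dendritic cells, rose from 644, 694 and 701 normalised counts to 1859, 1709 and 1570 (log2 change 1.32, SE 0.18, adjusted p = 4.41e-12). Icos, a CD28-family receptor encoded beside Ctla4, rose from 253, 336 and 189 to 1435, 1108 and 1246, where the low dose overlapped with the control (220 to 301). Tnfrsf9, the gene of 4-1BB, was lower with 80 µg, at 785, 687 and 757 against 1976, 1806 and 2050, and still far above the control values of 7.1 to 24.3 (decreased by 1.35 in log2 units, SE 0.35, adjusted p = 0.00225). Cd226, an adhesion receptor that shares ligands with TIGIT, fell from 163, 159 and 245 to 50.9, 58.1 and 73.7 (decreased by 1.60, SE 0.22, adjusted p = 1.28e-11). Cd28 itself had a log2 fold change of -0.60 (adjusted p = 4.5e-07) and missed the call by its fold change.

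Cytokine receptors rose more often than they fell, with 10 of 29 tested members called higher and 4 lower. Il12rb2, the inducible chain of the interleukin 12 receptor, was at 1.01, 1.32 and 0 with 0.8 µg and at 81, 27.1 and 36.9 with 80 µg, a ratio of 61.6 (95% exact counting interval 16.7 to 514, adjusted p = 1.75e-06). Stat4, which transmits the signal of that receptor, rose from 10.1, 1.32 and 4.32 to 53.2, 46.5 and 48 and remained below the control, at 162 to 227 (log2 change 2.87, SE 0.38, adjusted p = 1.08e-11). Further members called higher were the interleukin 2 receptor chains Il2ra, from 1323 ± 317 to 4206 ± 99.7, and Il2rb, from 204 ± 43.8 to 509 ± 64.6. On chromosome 1, the neighbours Il1rl1, Il18r1 and Il18rap (positions 40429570 to 40551705), receptors of interleukins 33 and 18, were called higher together, though at low levels: Il18rap reached 34.3 ± 29.8 with 80 µg. Their control means were 10.4, 167 and 21.5, and Il18r1, at 16 ± 8.13 with 80 µg, remained below the control. Il7r, the receptor of a survival cytokine of resting T cells, was raised from 12.1, 18.4 and 12.9 to 71.8, 51.3 and 70.3, far below the control values of 2104 to 3272 (log2 change 2.04, SE 0.35). Called lower were both receptors for tumour necrosis factor, Tnfrsf1a and Tnfrsf1b, as well as Tgfbr2 and Il10rb. Tnfrsf1a fell from 52.5, 47.4 and 39.9 to 13.9, 7.75 and 12 (decreased by 1.98, SE 0.34, adjusted p = 2.28e-07), and Tgfbr2, a TGF-beta receptor chain, from 81.8 ± 5.77 to 38.2 ± 13.3. The other TGF-beta receptor genes Tgfbr1 and Tgfbr3 were not called, at 0.17 and -0.60. Il10rb fell by 1.22 on the log2 scale, a call that was lost without replicate 1 of 80 µg. Without that library, the number of cytokine receptors called higher was 7, and without replicate 3 of 80 µg the number called lower was 2.

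In the JAK-STAT list, 4 of 24 tested members were called higher and 1 lower. The feedback inhibitor Socs3 rose from 17.2, 23.7 and 10.8 normalised counts to 244, 341 and 446 and so reached or passed the control range of 223 to 244 (log2 change 4.06, SE 0.46, adjusted p = 3.82e-16). Its relative Socs1 rose from 159 ± 87.5 to 856 ± 107. Tyk2, a kinase bound to the receptors of interleukin 12 and type I interferon, fell by 1.01 on the log2 scale, which lay at the threshold, and was not called under 5 of the alternatives.

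Lineage-defining transcription factors were the list with the most called members, 18 higher and 7 lower of 35 tested. Maf, a driver of Il10 and Il21 transcription, rose from 25.2, 59.3 and 27 to 543, 396 and 490 (log2 change 3.56, SE 0.35, adjusted p = 2.06e-21). Rora, a nuclear receptor of type 17 and type 2 helper cells, rose from 104, 175 and 54 to 1681, 1427 and 1517 (log2 change 3.55, SE 0.50, adjusted p = 1.01e-10). For both genes the control was well under the high dose. The further members called higher belong to several helper lineages: Tbx21, the master factor of type 1 cells, went from 150 ± 14.3 to 745 ± 106, Prdm1, which encodes Blimp-1, from 2.57 ± 2.45 to 26 ± 6.84, and Foxp3 from 3.92 ± 2.35 to 17.8 ± 3.47. The control means of Tbx21, Prdm1 and Foxp3 were 8.24, 42.8 and 38.9, above both doses for Prdm1 and Foxp3. Irf4 and Irf8, interferon regulatory factor genes induced by receptor signalling, rose by 1.58 (SE 0.15) and 1.80 (SE 0.14) on the log2 scale. Hif1a, the oxygen-sensing factor, rose by 1.86 (SE 0.14), and Satb1, a chromatin organiser, by 1.81 (SE 0.19). The lower members include factors of early or resting T cells. Myb, a factor of progenitors and stem-like T cells, fell from 643, 656 and 758 to 54.4, 75.5 and 53.2, the control range being 56.8 to 80.4 (decreased by 3.46 in log2 units, SE 0.18, adjusted p = 1.54e-76). Id3, an inhibitor of E proteins, fell from 196, 225 and 190 to 42.8, 53.3 and 44.6 (decreased by 2.07, SE 0.28). Tcf7 and Lef1, the partners of beta-catenin in naive T cells, and Eomes were called lower with log2 changes of -1.38, -1.16 and -1.46, whereas Bcl6, the follicular helper factor, was not called (-0.42). Without replicate 3 of 0.8 µg, the number called higher was 14.

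Called genes of the receptor complex and its proximal signalling proteins were lower with the high dose, with 1 exception. Of 34 tested members, 12 were called lower and 1 higher, and the median unshrunken log2 fold change was -0.71. Cd4, the coreceptor gene, fell from 794, 757 and 984 normalised counts to 212, 175 and 273 (decreased by 1.93, SE 0.14, adjusted p = 8.02e-39). The control, at 973 to 1122, was near the low dose. Rasgrp1, an activator of Ras, fell from 526, 452 and 496 to 112, 143 and 116, further from the control range of 981 to 1044 (decreased by 1.98, SE 0.15, adjusted p = 7.05e-39). Further members called lower were the phosphatase gene Ptpn6 (from 875 ± 141 to 232 ± 17.9), the adaptor gene Fyb (from 205 ± 24.7 to 74.6 ± 20.1), Plcg1 and Lck. The exception was Cd247, the zeta chain gene, which rose from 373, 445 and 453 to 873, 860 and 892 (log2 change 1.04, SE 0.11, adjusted p = 2.79e-19), a call lost without replicate 1 of 0.8 µg, where the value was 0.96. The receptor constant chains were not called: Trac had a log2 fold change of 0.33 (adjusted p = 0.0165), and Trbc1 and Trbc2 had means of 998 and 1314 with 0.8 µg and 959 and 1311 with 80 µg. Fyn and Zap70 were not called, at 0.58 and -0.18, where Fyn (adjusted p = 2.5e-08) missed the call by its fold change.

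Immediate early genes are switched on within minutes of receptor signalling. Of 22 tested immediate early genes, 5 were called higher and 2 lower. The number called higher was 3 without replicate 1 of 80 µg, without replicate 2 of 80 µg or without replicate 3 of 0.8 µg. The AP-1 family member Fosl1 rose from 18.2, 17.1 and 12.9 to 66, 67.8 and 79.7 (log2 change 2.05, SE 0.51, adjusted p = 0.00121), and Fosl2 from 241, 323 and 318 to 934, 1048 and 1100 (log2 change 1.75, SE 0.37, adjusted p = 5.49e-05). Egr1, a zinc finger factor, fell from 479, 613 and 586 to 174, 175 and 188, inside the control range of 158 to 204 (decreased by 1.62, SE 0.23, adjusted p = 1.64e-10). Egr2, its relative and a factor tied to anergy, went the other way, from 75.7, 123 and 109 to 200, 262 and 159 (log2 change 1.00, SE 0.31, adjusted p = 0.013), a call at the threshold that was lost under 8 of 15 alternatives. Nab2, a corepressor that binds EGR proteins, fell by 1.26 (SE 0.35). Fos, Jun and Myc were not called, at -0.63, 0.58 and 0.37.

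In the NF-κB list, 2 of 29 tested members were called higher and 2 lower, and the median was 0.07. Malt1, the protease that links the receptor to NF-κB, rose from 76.7, 119 and 89.6 to 1323, 966 and 1361, with the control (222 to 279) between the doses. Tnip3, an inhibitor of the pathway, rose from 60.6, 92.2 and 30.2 to 267, 283 and 342 (log2 change 2.13, SE 0.54, adjusted p = 0.00161). Ikbke, a non-canonical kinase gene, fell from 99.9, 83 and 89.6 to 20.8, 9.69 and 12.9, and the control was higher than both doses, at 405 to 444 (decreased by 2.61, SE 0.28, adjusted p = 8.74e-19). Rel, the c-Rel subunit gene, fell from 3326, 2820 and 3231 to 1483, 1651 and 1395 (decreased by 1.05, SE 0.13, adjusted p = 1.35e-14), and was not called when replicate 3 of 80 µg or replicate 1 of 0.8 µg was left out. Nfkb1 and Rela, the other main subunit genes, had log2 fold changes of 0.31 and 0.78 and were not called. Both missed the call by their fold change (adjusted p = 0.0285 and 2.2e-08).

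Of 23 tested genes of the calcium and NFAT pathway, 1 was called higher and none lower by DESeq2 or edgeR. At an unadjusted p under 0.05, 8 were lower, and the median was -0.33. Several lower genes had an adjusted p under 0.05 and missed the call by their fold change. These were Stim2 (-0.88), Ppp3ca (-0.66), Nfatc1 (-0.54), Dyrk1a (-0.49), Cabin1 (-0.48) and Gsk3b (-0.41). Nfat5 (0.77), higher, missed the call in the same way. The called gene was Atp2b4, a calcium pump of the plasma membrane, at 4.04, 11.9 and 4.32 with 0.8 µg and 69.4, 44.6 and 97.7 with 80 µg (log2 change 3.23, SE 0.41, adjusted p = 1.08e-12). Nfatc2 had a log2 fold change of -0.21 and was not called. Of 16 tested genes of MAP kinase feedback, Spry1 alone was called, higher by 1.13 (SE 0.26, adjusted p = 0.000225), and lost its call with the replicate block. Of 12 tested mRNA decay genes, Arid5a, whose product stabilises cytokine transcripts, was the only one called, from 29.3, 27.7 and 27 to 92.6, 95.9 and 125 (log2 change 1.87, SE 0.27, adjusted p = 1.56e-10).

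In the list of interferon response genes, DESeq2 called 17 of 47 tested members higher and edgeR 18, neither called any lower, and 2 were lower at an unadjusted p under 0.05. In all, 43 had a difference above 0, and the median unshrunken log2 fold change was 0.94. The groups did not overlap for 26 of them, higher with 80 µg. Ly6a, which encodes the surface protein Sca-1, had 296, 626 and 276 normalised counts with 0.8 µg and 4445, 3380 and 3664 with 80 µg (log2 change 3.16, SE 0.35, adjusted p = 8.69e-18). Gbp5, a guanylate-binding protein gene, had 44.4, 22.4 and 23.7 with 0.8 µg and 289, 270 and 250 with 80 µg (log2 change 3.07, SE 0.30, adjusted p = 1.94e-22). In both genes the control lay with the low dose. The called members included the guanylate-binding protein genes Gbp2, Gbp3, Gbp4, Gbp5 and Gbp7, and the immunity-related GTPase genes Igtp, Irgm1, Irgm2, Iigp1 and Ifi47, which were singled out after their values were seen. Listed relatives that were not called were Gbp6, Gbp8, Gbp9, Tgtp1 and Tgtp2, with log2 fold changes of 1.25, 0.97, 0.83, 1.07 and 0.33. Among them, Gbp8 (adjusted p = 0.0302) missed the call by its fold change. Of those called, Gbp2 rose from 36.2 ± 8.55 to 241 ± 79.3, Iigp1 from 38.5 ± 9.7 to 316 ± 130, and Irgm1 from 22.3 ± 2.49 to 93 ± 12.6. Some members known chiefly as targets of type I interferon were also picked after their values were seen. Of these, Ifit1, Rsad2, Isg15 and Mx1 had log2 fold changes of -1.15, -0.77, 0.69 and 0.79 and did not pass the test. Oas2 was called, from 2.65 ± 1.65 to 12.5 ± 6.1. Stat2, Zbp1, Trim30a, Parp14 and Samhd1 of the same list were called higher too. Whether targets of type I and type II interferon differed in their response to dose was not tested. For 9 of the called members in the plot of interferon and sterol genes, including Samhd1, Trim30a and Parp14, the control mean was above both doses.

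Promoter sequences are shown for 2 called GTPase genes because interferon-induced factors bind a short element there. The sequences are the 250 bases before the RefSeq start sites (GRCm38.p6), and capitals mark matches on either strand to GAAANNGAA, the core of the interferon-stimulated response element. The Gbp5 sequence lies at chr3:142496684-142496933, plus strand, and the Irgm1 sequence at chr11:48871421-48871670, minus strand, each printed along its gene.
Gbp5: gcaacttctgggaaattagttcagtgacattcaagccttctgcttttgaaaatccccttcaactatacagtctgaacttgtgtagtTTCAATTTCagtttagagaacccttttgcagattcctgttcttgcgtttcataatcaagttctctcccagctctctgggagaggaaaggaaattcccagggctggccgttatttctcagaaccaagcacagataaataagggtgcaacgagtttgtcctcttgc
Irgm1: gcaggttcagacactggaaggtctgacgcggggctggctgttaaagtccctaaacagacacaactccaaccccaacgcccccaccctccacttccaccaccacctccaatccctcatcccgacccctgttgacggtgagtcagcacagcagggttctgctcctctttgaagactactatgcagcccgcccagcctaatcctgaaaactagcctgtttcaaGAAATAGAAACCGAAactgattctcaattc
The core matched once before Gbp5 and as 2 overlapping matches before Irgm1. It was found in 9 of 11 called interferon genes with a promoter in the RefSeq table (81.8%), in 18 of 31 tested members of the list with one (58.1%), and in 8.18% of 27025 genes with one. The list is of known interferon targets, so this share describes the list and not the dose. Over all called genes it was found in 16% of those higher and 8.65% of those lower, against 7.57% of tested genes. The AP-1 letters TGANTCA were found in 10.5% of genes called higher, 3.37% of those called lower and 4.65% of tested genes.

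**Figure D3:**
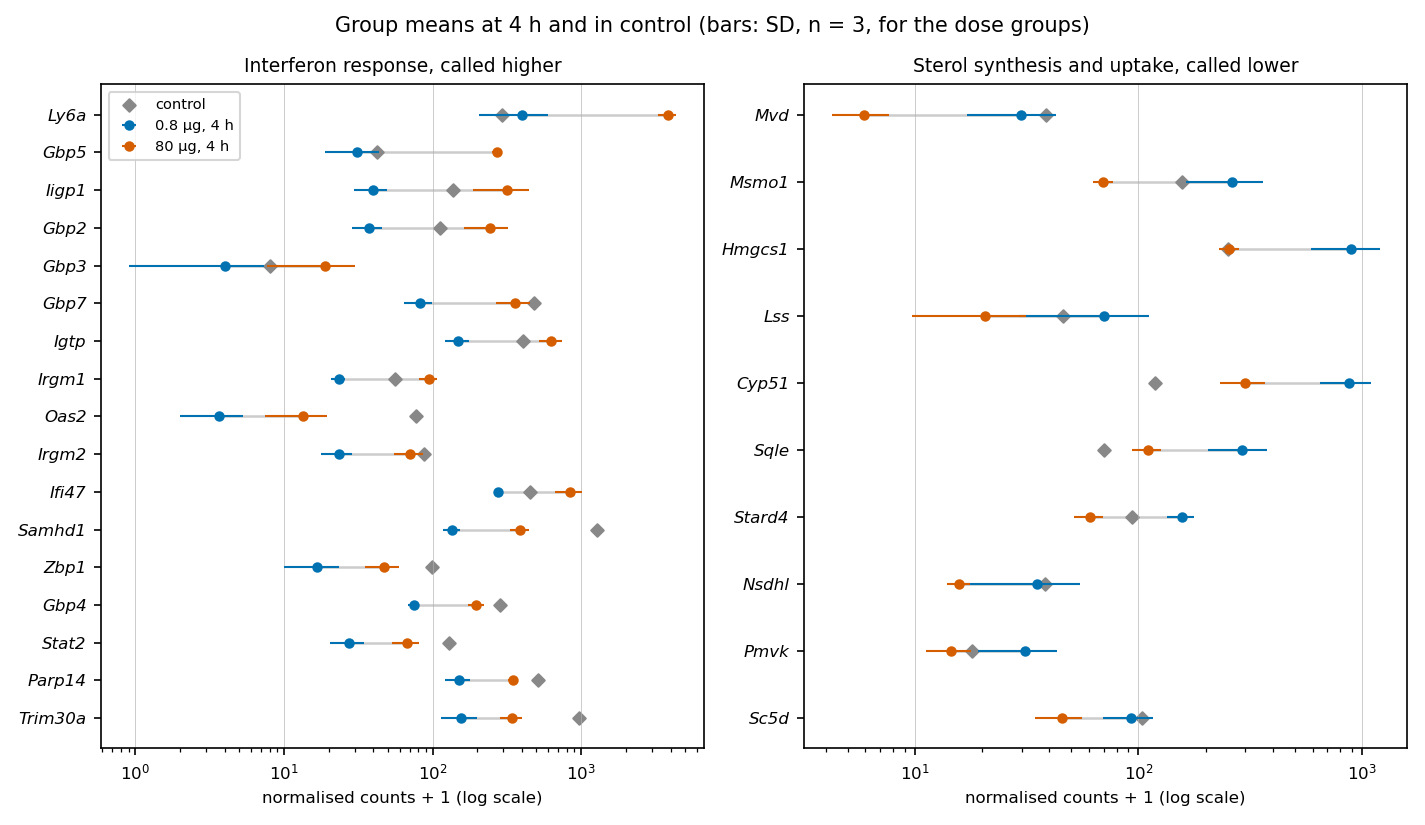
Mean normalised counts plus 1, on a log axis, of the 17 interferon response genes called higher (left) and 10 of the 12 sterol genes called lower (right) at 4 h. Circles are means of 3 libraries with SD bars for 80 µg (orange) and 0.8 µg (blue), and diamonds are control means. Orange lies to the right of blue in every interferon gene and to the left in every sterol gene shown.

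Zinc handling showed a rise of both metallothionein genes, whose small proteins bind zinc and copper, the only members called: 2 of 16 tested were higher and none lower by DESeq2 or edgeR (4 higher and 1 lower at an unadjusted p under 0.05), with a median of 0.38. Mt2 had 0, 1.32 and 0 normalised counts with 0.8 µg and 94.9, 63.9 and 113 with 80 µg, a ratio of 245 (95% exact counting interval 43.6 to 9699, adjusted p = 8.56e-08). Mt1, its neighbour, had 2.02, 1.32 and 1.08 with 0.8 µg and 109, 37.8 and 103 with 80 µg (log2 change 5.10, SE 0.65, adjusted p = 1.17e-09). In the control, Mt1 was at most 2.03 and Mt2 at most 5.15. The zinc-sensing factor Mtf1 had a log2 fold change of -0.04, and the importer genes Slc39a6 and Slc39a10 had 0.20 and 0.69, none of them called. The importer gene Slc39a1 averaged 45.0 ± 18.4 with 0.8 µg and 86.5 ± 8.7 with 80 µg, without overlap (log2 change 0.93, SE 0.34, adjusted p = 0.04997), and missed the call by its fold change.

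The promoters of both genes are printed because the pair sits side by side and moved together. Capitals mark matches on either strand to TGCACNC or TGCGCNC, the core of the metal response element, in the 250 bases before each RefSeq start (GRCm38.p6), at chr8:94172368-94172617, plus strand for Mt2 and chr8:94178839-94179088, plus strand for Mt1.
Mt2: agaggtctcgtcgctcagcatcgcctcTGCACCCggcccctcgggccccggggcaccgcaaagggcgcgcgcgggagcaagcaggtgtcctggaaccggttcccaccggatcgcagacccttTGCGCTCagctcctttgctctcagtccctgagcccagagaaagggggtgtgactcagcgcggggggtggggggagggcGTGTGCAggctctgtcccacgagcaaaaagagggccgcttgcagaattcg
Mt1: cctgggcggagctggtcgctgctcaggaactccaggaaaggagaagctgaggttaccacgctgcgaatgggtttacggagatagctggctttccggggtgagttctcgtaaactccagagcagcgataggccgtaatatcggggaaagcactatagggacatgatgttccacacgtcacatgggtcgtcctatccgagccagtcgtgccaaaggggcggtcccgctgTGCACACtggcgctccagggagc
There were 3 matches before Mt2 and 1 before Mt1. These letters are common, and 23.8% of all genes with a promoter and 34.5% of tested genes hold them.

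Of 23 tested genes of sterol synthesis and uptake, 12 were called lower with 80 µg, all 23 had a difference below 0, and the groups did not overlap for 19. The median unshrunken log2 fold change was -1.22. Msmo1, a demethylating oxidase of late cholesterol synthesis, fell from 243, 171 and 365 to 76.4, 63 and 66 (decreased by 1.90, SE 0.24, adjusted p = 7.68e-14). Replicate 3 of 0.8 µg was the highest library, and the groups did not overlap. Called members came from early and late stages of the path: Hmgcs1 at its entry (from 894 ± 302 to 254 ± 26.4), Mvd and Pmvk in the mevalonate steps, Sqle and Lss at the making of the ring (Sqle from 289 ± 85.5 to 109 ± 16.6), and Cyp51, Nsdhl and Sc5d thereafter (Cyp51 from 868 ± 223 to 298 ± 68.7). Srebf2, the gene of a controlling transcription factor, had a log2 fold change of -0.71 (adjusted p = 0.000245) and missed the call by its fold change. Without replicate 3 of 0.8 µg, 8 members were called lower. Over the list of sterol efflux and liver X receptor targets, the opposing branch, 1 of 9 tested members was called, Scd2, lower, from 11.3 ± 4.8 to 1.16 ± 2, and the efflux genes Abca1 and Abcg1 had 1.23 and 1.31 without being called.

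The promoter of Hmgcs1 shows a match to the sterol regulatory element, TCACNCCAC, marked in capitals in the 250 bases before its RefSeq start (GRCm38.p6, chr13:119690101-119690350, plus strand).
Hmgcs1: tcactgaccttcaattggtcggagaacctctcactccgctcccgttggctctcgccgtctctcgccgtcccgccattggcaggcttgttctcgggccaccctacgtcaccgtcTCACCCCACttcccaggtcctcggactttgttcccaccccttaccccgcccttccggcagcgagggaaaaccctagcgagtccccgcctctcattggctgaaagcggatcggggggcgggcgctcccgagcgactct
It was the only one of 8 called sterol genes with a promoter in the table that held these exact letters, which were found in 1.22% of all genes with a promoter.

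Among homing and egress genes, 2 of 21 tested were called higher and 2 lower. Cxcr3, the receptor of the chemokine Cxcl9, rose from 7.07, 14.5 and 2.16 to 78.7, 54.2 and 62.6 (log2 change 2.91, SE 0.43, adjusted p = 1.09e-09). Ccr7, which guides cells to lymph nodes, rose from 104, 108 and 147 to 317, 207 and 297, far under the control at 1139 to 1363 (log2 change 1.18, SE 0.17). Itga4, an integrin chain, fell from 117, 109 and 80.9 to 45.1, 32.9 and 30 (decreased by 1.49, SE 0.24), and Klf3, a Kruppel-like factor, from 156, 132 and 180 to 37, 33.9 and 70.3. Both were already far below the control at the low dose. Of 21 tested genes of the quiescent state, 4 were called higher and 2 lower. Klf6 rose from 113, 121 and 104 to 674, 609 and 730, where 1 library lay inside the control range of 681 to 848 (log2 change 2.55, SE 0.20, adjusted p = 1.91e-35), and Foxo1, a factor that upholds Il7r and Ccr7 in resting cells, from 199 ± 15 to 478 ± 20.9. Cdkn1b, a brake on the cell cycle, fell by 1.12 on the log2 scale, a call that 3 alternatives did not keep.

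Both hexokinase genes that start glycolysis in these cells rose. Hk2 went from 306, 339 and 308 normalised counts to 1072, 1064 and 1134 (log2 change 1.75, SE 0.28, adjusted p = 3.38e-08), and Hk1 from 101, 144 and 110 to 424, 386 and 377 (log2 change 1.73, SE 0.19, adjusted p = 1.09e-17). With the glucose transporter gene Slc2a1 they were the 3 called of 20 tested glycolysis genes, and the median of the list was 0.05. None was called lower by DESeq2 or edgeR, and 2 were lower at an unadjusted p under 0.05. Pfkfb3 (-0.82), lower, had an adjusted p under 0.05 and missed the call by its fold change. The same held for Ldha (0.44), Pfkp (0.52) and Pkm (0.82), which were higher. Of 28 tested cell cycle genes, 2 were called higher: Cdk6, from 691, 759 and 704 to 1980, 1645 and 1981, and the inhibitor Cdkn1a, from 17.2, 29 and 12.9 to 66, 71.7 and 66.9, whose call was lost without replicate 3 of 0.8 µg. Among 18 tested survival genes, Gadd45g and Bcl2 were called higher, by 1.72 and 1.06, the latter not in 3 of the alternatives. Fasl, the death ligand gene, fell from 313, 341 and 333 to 124, 81.4 and 84, without overlap (decreased by 1.75, SE 0.27, adjusted p = 7.18e-09).

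Among genes of growth and protein quality, none was called by DESeq2 in the lists of 28 ribosome biogenesis, 24 heat shock and folding and 15 amino acid transport genes, with medians of 0.02, -0.01 and 0.14, and edgeR called none of them. At an unadjusted p under 0.05 in DESeq2, 2 ribosome biogenesis genes were higher and 1 lower, 3 heat shock and folding genes were higher and 5 lower, and 4 amino acid transport genes were higher. Some of these had an adjusted p under 0.05 and missed the call by their fold change: Wdr43 (-0.39) and Polr1c (0.35) of ribosome biogenesis, Pdia4 (-0.65) and Manf (0.50) of folding, and Mthfd2 (0.49), Slc3a2 (0.53) and Bcat1 (0.62) of amino acid transport and use. Ncl, the nucleolin gene, had 37936, 36827 and 37312 normalised counts with 0.8 µg and 37524, 37667 and 38739 with 80 µg, against 2999 to 3396 in the control. Hsp90ab1, a chaperone gene, had 19041, 18345 and 19936 with 0.8 µg and 16813, 19343 and 17798 with 80 µg, against 3642 to 3665. Slc7a1, a transporter of arginine and lysine, had 2818, 2703 and 2567 with 0.8 µg and 2424, 2506 and 2313 with 80 µg, against 234 to 276. All 3 were many times above the control at both doses, and their log2 fold changes between doses were 0.02, -0.09 and -0.16 (SE 0.08, 0.11 and 0.09).

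Several of the genes with the steepest changes stood outside the lists. Crybg1, a crystallin-related gene, rose from 20.2, 6.59 and 10.8 normalised counts to 498, 279 and 526, passing the control range of 155 to 196 (log2 change 4.92, SE 0.31, adjusted p = 3.77e-52). The non-coding transcript A230072C01Rik was at 2.02, 0 and 0 with 0.8 µg and at 46.3, 46.5 and 56.6 with 80 µg, a ratio of 67.3 (95% exact counting interval 18.3 to 561). Among the ranked genes the steepest fall was that of Gtf2ird1, a transcription factor gene, from 113, 71.1 and 106 to 3.47, 6.78 and 12, where the low dose was near the control range of 64.2 to 84.5 (decreased by 3.49, SE 0.36, adjusted p = 1.99e-19). Tnnt2, the gene of a troponin, fell from 616, 437 and 546 to 77.5, 56.2 and 71.2, the control being at most 2.06 (decreased by 2.93, SE 0.26), Csrp1, which encodes an actin-associated LIM protein, from 125, 89.6 and 127 to 10.4, 15.5 and 15.4, and Lasp1, another, from 96.9, 103 and 177 to 24.3, 17.4 and 18.9. Csrp1 and Tnnt2 flank Lad1 on chromosome 1 (positions 135720061 to 135852260), and all 3 neighbours were called lower. Akna, Cdon and Nsg2 had log2 changes of -2.91, -2.88 and -2.79. Pde4a, a phosphodiesterase that degrades cyclic AMP, was at 56.5, 73.8 and 66.9 with 0.8 µg, at 9.26, 13.6 and 6.86 with 80 µg and at most at 1.43 in the control.

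The summed levels of the markers of B cells, of MHC class II-presenting cells and of myeloid and dendritic cells lay below the control range at both doses. The sum over 15 B cell markers lay between 235 and 443 normalised counts with 0.8 µg and between 198 and 247 with 80 µg, and in the control between 1477 and 1943. Of 12 tested, Cr2 was called, lower. The sum over 15 myeloid and dendritic markers lay between 259 and 400 with 0.8 µg and between 156 and 248 with 80 µg, without overlap, and between 611 and 763 in the control. Most of that sum was Ctss, a lysosomal protease gene, which averaged 228 with 0.8 µg, 169 with 80 µg and 637 in the control. Single markers lay above the control, such as Lyz2 at 53.1 with 0.8 µg against 11.9, and Cd68 at 15.0 and 9.48 against 7.02. Of 8 tested, Lyz2 was called, lower, and the defining dendritic markers Clec9a and Xcr1 were at 0 in all 6 libraries. No marker of MHC class II-presenting cells, CD8 and NK cells or red cells was called, and no neutrophil marker was high enough to be tested. The part of the myeloid difference in the results was not tested. Regulatory T cell markers summed to 183 to 219 with 0.8 µg and 266 to 330 with 80 µg, below the control at 366 to 608. Of 7 tested, 3 were called higher and 1 lower. Foxp3 and Ikzf4 rose (Ikzf4 from 8.35 ± 7.25 to 95.9 ± 10.6), and Lrrc32 fell from 71.7 ± 13.3 to 17.2 ± 4.89. The control means of Foxp3, Ikzf4 and Lrrc32 were 38.9, 95.1 and 5.6. The other member called higher was Nrp1, a coreceptor for semaphorins, from 9.08, 9.22 and 3.24 to 40.5, 76.5 and 68.6 (log2 change 2.89, SE 0.47, adjusted p = 4.01e-08). Nrp1 also belongs to the list of anergy genes and ubiquitin ligases, of which 2 of 11 tested members were called higher (with Egr2) and 2 lower. Of the latter, Tle4, a corepressor, fell from 303, 296 and 355 to 85.6, 119 and 142, and Dgkz, a kinase that removes diacylglycerol, from 692, 528 and 688 to 221, 294 and 243.

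The level in untreated cells helps to place the 2 directions. Of the 338 genes called higher, the control mean was below both dose groups in 129 (38.2%), between them in 99 (29.3%) and above both in 110 (32.5%). Of the 297 called lower, it was below both in 38 (12.8%), between in 52 (17.5%) and above both in 207 (69.7%). Among all tested genes with a difference below 0, the control was above both in 55%, and among those with a difference above 0, below both in 49.6%. The genes called lower thus were mainly genes whose level was under the control at both doses and furthest under it at the high dose, as in Ikbke, Rasgrp1 and Lasp1, while Tnnt2, Pde4a and Tnfrsf9 were above it at both. These shares are descriptions and were not tested.

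**Figure D4:**
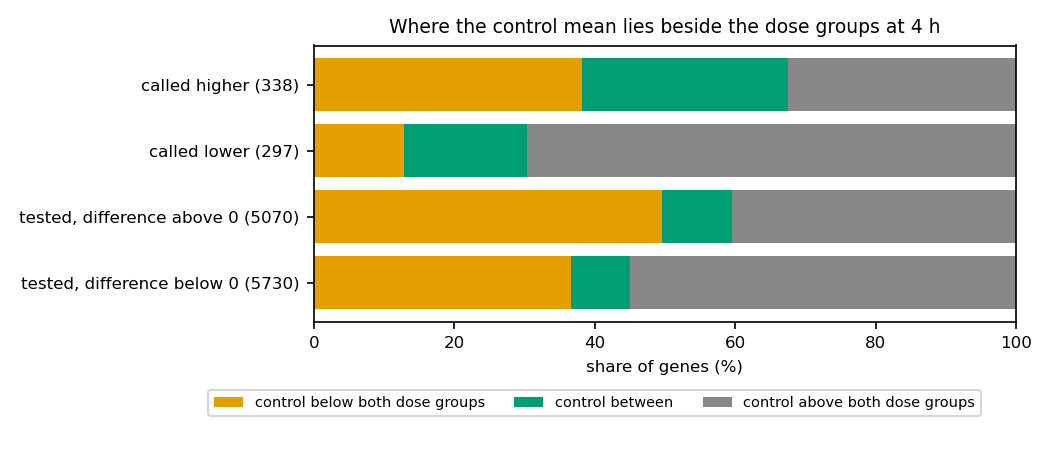
Shares of genes, in percent, whose control mean lies below both dose groups (yellow), between them (green) or above both (grey) at 4 h, for the genes called higher and lower with 80 µg and for all tested genes by the sign of their difference, with numbers of genes in brackets. The grey share is 69.7% among genes called lower and 32.5% among genes called higher.

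The dose effect at 4 h was compared with that at 12 h and at 24 h in the same model. The 12 h cells were Blue+Red+ and the 24 h cells Blue-Red+, hence time and gate cannot be told apart. Over all genes, the dose effect differed from that at 12 h for 711 of 9959 tested (7.14%) and from that at 24 h for 800 of 11145 (7.18%), by an interaction term with adjusted p under 0.05. Of the 338 genes called higher at 4 h, 316 could be tested against 12 h, and the effect differed for 145, always in the sense of a larger rise at 4 h. Of the 297 called lower, 288 could be tested, and the effect differed for 142, with the larger fall at 4 h in 139. Since these genes were called at 4 h, an effect larger at 4 h is favoured by that choice. At 12 h, 107 of the 338 were higher with 80 µg by adjusted p alone (3.67% of all tested genes) and 5 lower, and 53 of the 297 were lower (2.6% of all tested genes) and 9 higher.

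Individual genes show both kinds of course. The effect on Il21 was large at both times, with unshrunken log2 fold changes of 7.67 at 4 h and 6.36 at 12 h. Gm12534 averaged 0 with 0.8 µg at both times, and 147 at 4 h and 86.1 at 12 h with 80 µg. Its fold change therefore has no exact value at either time. For Tnnt2 the fall was the same, -2.97 at both times. For Serpinb6b the values were 4.50 at 4 h and 0.14 at 12 h, and the interaction passed the test (difference 4.36, adjusted p = 7.82e-27): at 12 h its means were 481 with 0.8 µg and 531 with 80 µg, so that the low dose had reached the level that the high dose held at 4 h. Stat4 also lost its dose difference, but here both doses had reached 206 and 165 at 12 h, above the 49.2 of the high dose at 4 h and close to the control mean of 196. Myb, by contrast, was at 94.4 and 75.6 at 12 h, and here the high level of the low dose at 4 h was the exception (difference -3.18, adjusted p = 1.3e-29). The sterol gene Msmo1 was at 0.06 at 12 h, without a call. The interferon genes Ly6a and Gbp5 had 2.65 and 1.15.

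**Figure D5:**
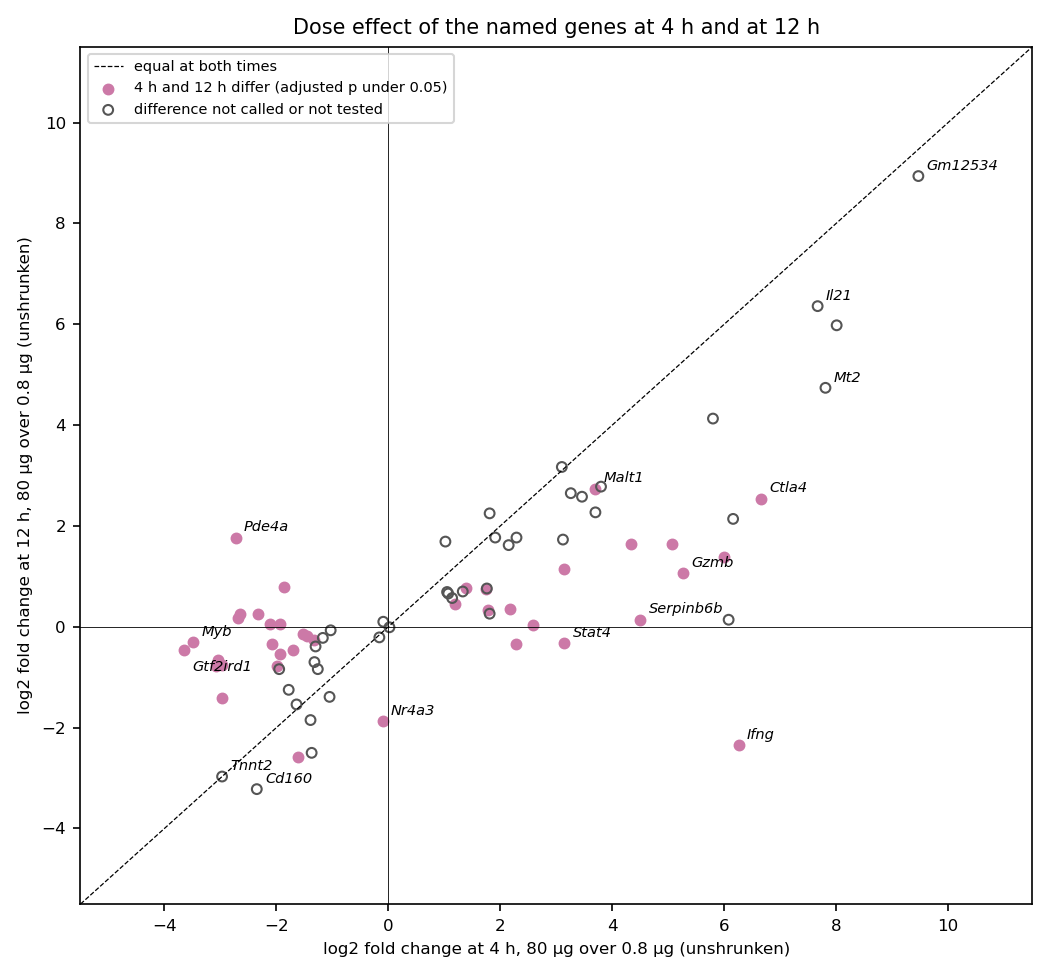
Each point is 1 of the 79 named genes, placed by its unshrunken log2 fold change between 80 µg and 0.8 µg at 4 h (horizontal) and at 12 h (vertical). Filled points differ between the times by the interaction test, open points do not or were not tested, and the dashed line marks equal effects. Genes called higher at 4 h lie mostly right of and below the line, and Tnnt2 lies near it. Ifng falls from 6.26 at 4 h to -2.34 at 12 h. Gm12534 and Gm43822 averaged 0 with 0.8 µg at both times, so their positions are fitted values and not measured ratios.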

How the data were processed

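RNA of CD4+ T cells sorted from individual mice was sequenced as 3′ mRNA libraries (QuantSeq). Per the labels and the study's methods, the authors trimmed reads with Bbduk, aligned them to GRCm38 (mm10) with STAR 2.5.2a and made the deposited raw counts per gene with HTSeq-count. The deposited log2 values are the authors' regularised log transformation from DESeq2 and were used only for gene names. The annotation release, the strand setting of counting and whether molecular identifiers were used are not given in the sources used here, so intervals and floors cover counting error only.

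Following the study's methods, genes with at least 10 counts over all 21 libraries (15300 of 47643) were fitted in 1 DESeq2 1.42.0 model with a coefficient for each of 7 groups (R 4.3.3), with normal shrinkage of log2 fold changes. Groups came from the labels. Genes were called at a Benjamini-Hochberg adjusted p under 0.05 and a shrunken log2 fold change over 1 in size. Dose effects at 4 h and at 12 h or 24 h were compared by interaction terms without shrinkage. edgeR 4.0.16 (quasi-likelihood test, TMM) was an alternative, beside other filters, scaling, thinning, a replicate block, sex as a term and leaving out each library. Counts were simulated for 13629 genes of this comparison, 200 of them changed. DESeq2 recovered 74% of changes of 2 and 84% of changes of 3 on the log2 scale, with 0 false calls. The rates of edgeR were 95% and 100%, with 1 false call. These rates describe the simulated counts only and are not the share of real changes found. Recovery of genes with few counts, or of changes other than 2 and 3, was not assessed separately.

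Named genes are the 10 with the largest rise and the 10 with the largest fall among called genes that averaged 20 or more normalised counts at 4 h and whose groups did not overlap, up to 2 genes each way per list by the same ranking, the most counted gene of each described list with no call, and Nr4a3. This gave 79 genes, and a few genes that the rule or the lists hold are not reported here. The lists, markers and this rule were chosen with earlier results of these data known. Locations are from GENCODE vM21 and promoters from RefSeq, both on GRCm38. Of the 79 genes, 33 have an exon that overlaps another gene, 27 on the opposite and 7 on the same strand, whose reads may not be separable.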

Additional observations from a re-analysis of the deposited data

Results flagged for a closer look

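For 38 of the named genes, the effect of dose at 4 h differed from that at 12 h by the interaction test of DESeq2 (Benjamini-Hochberg adjusted p under 0.05; 7.14% of all genes tested for it). Values are the unshrunken log2 effect at 4 h minus that at 12 h. Because Blue+Red- cells were taken at 4 h and Blue+Red+ cells at 12 h, time and gate cannot be told apart, and no cause was tested. Most of the named genes were also picked for a large effect at 4 h.

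Among genes called higher with 80 µg at 4 h, the effect was larger at 4 h by 8.61 for Ifng, whose 3 high-dose libraries varied widely, by 4.63 for Il12rb2, 4.36 for Serpinb6b, 4.20 for Gzmb and 4.13 for Ctla4. The difference was 3.47 for Stat4, 3.43 for Crybg1, 2.69 for Socs3, 2.63 for Tnip3 and 2.54 for Klf6. It was 1.99 for Gbp5, 1.81 for Il7r, 1.44 for Hk2, 1.01 for Hk1, 0.95 for Malt1, 0.73 for Ccr7 and 0.62 for Cdk6. In Ifng, Stat4 and Tnip3 the effect at 12 h was below 0, at -2.34, -0.33 and -0.34, but did not pass the test there (adjusted p = 0.0893, 0.374 and 0.864).

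Among genes called lower at 4 h, the effect at 4 h lay below that at 12 h by the following differences. The largest was -4.51 for Pde4a, then -3.19 for Gtf2ird1, -3.18 for Myb, -2.91 for Lasp1, -2.86 for Ikbke and -2.64 for Ltb. The sterol gene Msmo1 had -1.99. Csrp1, Akna, Cdon and Id3 had -2.37, -2.31, -2.22 and -2.18. Tnfrsf1a, Nsg2, Cd4 and Itga4 had -1.72, -1.57, -1.39 and -1.38. Tle4, Klf3, Rasgrp1 and Dgkz had -1.27, -1.24, -1.21 and -1.07. Cd226 was the exception, with a difference of 0.97, since its fall was deeper at 12 h. The effects at 12 h of Pde4a, Ltb, Lasp1, Ikbke, Id3 and Msmo1 were above 0, at 1.77, 0.79, 0.26, 0.17, 0.06 and 0.06, and none of these passed the test at 12 h (adjusted p 0.17 to 0.956).

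Nr4a3, the gene behind the Timer, was not called at 4 h but was lower with 80 µg at 12 h, at 154 against 562 normalised counts, a difference between the effects of 1.77 (adjusted p = 0.0185). The gate selects on the product of this gene's regulatory sequences.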

How the results depend on the processing

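With the adjusted p alone and no threshold on the fold change, 1301 genes differed at 4 h (630 higher, 671 lower). A fit to only the 6 libraries called 191 genes lower in place of 297, with 494 called in all, 471 of them shared with the 635. Leaving out each library in turn gave 529 to 642 called genes (276 to 340 higher, 243 to 302 lower), and 547 to 696 and 641 to 782 genes whose dose effect differed from 12 h and 24 h. edgeR called 644, 600 of them shared. Whether the replicate numbers pair the mice is not given in the sources used here. Same-numbered libraries of the doses had correlated deviations of 0.01, -0.01 and 0.05, which cannot exclude pairing with 3 libraries a group. Sex matched by number, with replicates 1 and 2 female and replicate 3 male at both doses. With the replicate block 611 genes were called, 597 of them shared, and 645 and 747 differed from 12 h and 24 h. Under the alternatives, 62 of 75 called named genes stayed called and 13 did not under at least 1, with 0 reversed. The interaction tests were not run with only the 6 libraries, which hold 1 time. Without replicate 3 of 0.8 µg, 8 sterol genes were called lower in place of 12. With 3 mice a group and 2715246 to 4333593 counts a library, small differences of low genes may have been missed, which was not tested. Thinning all libraries to the smallest total left 563 calls.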

Other observations

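Some called genes lay beside each other. Of 8058 pairs of adjacent tested genes within 100 kb, both members were called in 93, in the same direction in 86 and in opposite directions in 7. These pairs include the runs of short transcripts over Satb1 and Camk2d. Runs of 3 or more included the chromosome 3 cluster Gbp5, Gbp7, Gbp3 and Gbp2 (142493978 to 142638008), the chromosome 15 genes Gm8000, Ly6a and Ly6c1, and the GTPases of immune-associated proteins Gimap8, Gimap9 and Gimap4 on chromosome 6 (48647234 to 48692060), all higher. Hip1r, Vps37b and Abcb9 on chromosome 5 were all lower. How often unrelated neighbours would be called together was not tested.

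Other runs were made of a gene and short transcripts annotated over or beside it. Satb1 was called higher with 8 neighbours on chromosome 17 (51736187 to 51863217), of which 5 overlapped it and 3 (Gm37593, Gm37266 and Gm37176) overlapped no gene on the same strand, and Camk2d with 7, all overlapping it, on chromosome 3 (126596302 to 126846326). These short transcripts are of the annotation class TEC, which awaits experimental evidence. Of 394 tested, 28 were called higher and 9 lower, against 287 and 276 of 9617 protein-coding genes. Of the 28, 24 overlapped a gene on the same strand, and for 23 that gene was called higher too. Of the 9, all overlapped such a gene, and for 3 that gene was called lower. As 3′ reads were counted by annotation, whether these reads come from the host gene or from a separate transcript was not tested.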
